A study of Mus musculus with 14 samples.

Results

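The genes Tfcp2l1, Tbx3, Prdm14, Zfp42, Nr5a2 and Tcl1 encode factors of the naive pluripotency network, and the accessible chromatin around them was followed while GATA6 drove mouse embryonic stem (ES) cells towards primitive endoderm (PrE). A region was ascribed to one of these genes if the gene had the nearest protein-coding transcription start site (TSS) within 50 kb of the region's midpoint. By this rule 101 regions were found, of 84402 regions ascribed to any gene and 124598 regions in all. The regions are the union of 14 ATAC-seq peak lists, in which peaks overlapping by at least 1 bp were merged. ATAC-seq marks open DNA by the insertions of a transposase, here in 50000 cells per library. The cells were KH2 ES cells of strain C57BL/6 that carry the transgene TRE:GATA6-DSREd2, a doxycycline (Dox)-inducible GATA6 with the fluorescent reporter DsRed2, and all 7 groups carried it. The 2 libraries at 0 h came from cells in 2i medium with LIF and no Dox. Pairs of libraries at 2, 4 and 8 h came from cells in serum medium with LIF and Dox at 1 µg/mL, and those at 16, 24 and 48 h from cells given Dox for 12 h and then serum medium without it. Medium and induction changed together and no library came from serum without Dox, so their effects cannot be told apart. The transgene sits in 1 cell line, and the labels do not say whether the replicates were separate cultures. The p-values given here come from shuffles of time over libraries taken as separate units, and they speak only for these libraries. If the 2 libraries of a time were not independent, the p-values would be too small.

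Naive pluripotency is the state of the early epiblast, and in culture it is held by LIF, which acts through STAT3, together with inhibitors of MEK and GSK3 (2i). Its factors bind near one another's genes, so that each gene of the network is flanked by several regulatory regions. TFCP2L1 is a grainyhead-related transcription factor and a target of LIF and STAT3, TBX3 is a T-box factor that also takes part in extraembryonic endoderm formation, and PRDM14 is a zinc finger protein that restrains FGF signalling and DNA methylation. ZFP42, also called REX1, is the customary reporter of the naive state, NR5A2 is an orphan nuclear receptor of both ES cells and endodermal tissues, and TCL1 is a cofactor of the kinase AKT.

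The 14 lists held between 55588 and 65073 peaks each. Of 5 ES cell markers, Sox2 and Nanog had an accessible region within 500 bp of the TSS in both 0 h libraries, Klf4 in 1 of 2, and Pou5f1 and Esrrb in neither. At 48 h Sox2 and Pou5f1 had one in both libraries, Klf4 in 1 of 2, and Nanog and Esrrb in neither. Of 5 PrE markers (Gata4, Sox17, Sox7, Pdgfra and Foxa2), 0 had such a region in either 0 h library and 3 had one in both 48 h libraries, and their summed number of called regions went from a range of 12 to 14 at 0 h to 44 to 45 at 48 h. The same sum ranged from 25 to 30 and from 29 to 33 for the ES cell markers, from 25 to 28 and from 27 to 28 for 5 trophectoderm markers, and from 8 to 9 and from 5 to 6 for 5 fibroblast markers. A region within 500 bp of the TSS was called in both 0 h libraries at 3 of these trophectoderm and 1 of these fibroblast markers. In both 48 h libraries the numbers were 4 and 0, so this measure does not single out ES cells. The part of any change in cell types in the results was not tested, and a call that disappears cannot tell fewer cells with an open region from less opening in each cell.

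The sequences that follow are the central 200 bp of 9 regions on which the results turn, read 5′ to 3′ on the plus strand of GRCm38. Each region is named by its gene and by the signed distance of its midpoint from the gene's TSS in kb, with plus for downstream. Capitals mark matches to the motifs that were searched, which are given with their frequencies further on. The first set was called in both 0 h libraries and in neither 48 h library. Nr5a2 +9.0 kb (an intron of Nr5a2) and Nr5a2 -42.9 kb (between genes) were absent from 2 h on. Tbx3 +39.4 kb, Prdm14 +23.1 kb and Zfp42 -14.0 kb (all between genes) were called up to 24 h in at least 1 library, and Zfp42 -14.0 kb ranked highest of the 19 lost regions at 0 h.
Nr5a2 +9.0 kb, chr1:136951380-136951579: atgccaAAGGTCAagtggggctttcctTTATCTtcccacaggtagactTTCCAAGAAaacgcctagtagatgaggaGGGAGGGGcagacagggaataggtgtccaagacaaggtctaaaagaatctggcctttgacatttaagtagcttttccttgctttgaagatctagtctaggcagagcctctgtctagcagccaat
Nr5a2 -42.9 kb, chr1:137003272-137003471: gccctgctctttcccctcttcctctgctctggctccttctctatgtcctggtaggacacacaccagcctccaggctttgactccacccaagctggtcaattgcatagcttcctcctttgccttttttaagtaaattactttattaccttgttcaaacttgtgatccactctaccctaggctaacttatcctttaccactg
Tbx3 +39.4 kb, chr5:119709943-119710142: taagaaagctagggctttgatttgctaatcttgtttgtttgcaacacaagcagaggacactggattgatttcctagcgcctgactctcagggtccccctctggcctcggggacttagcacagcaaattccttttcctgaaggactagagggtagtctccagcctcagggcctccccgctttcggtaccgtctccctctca
Prdm14 +23.1 kb, chr1:13103936-13104135: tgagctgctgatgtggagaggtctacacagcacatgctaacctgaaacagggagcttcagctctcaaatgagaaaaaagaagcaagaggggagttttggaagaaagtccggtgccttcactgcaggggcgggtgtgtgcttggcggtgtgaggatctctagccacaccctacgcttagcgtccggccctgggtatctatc
Zfp42 -14.0 kb, chr8:43320867-43321066: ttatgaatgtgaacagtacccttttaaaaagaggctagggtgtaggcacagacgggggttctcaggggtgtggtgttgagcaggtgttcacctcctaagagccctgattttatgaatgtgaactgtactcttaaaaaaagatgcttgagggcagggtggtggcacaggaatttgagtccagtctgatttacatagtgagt

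The next 2 regions were called in all 14 libraries and ranked highest for their gene at 0 h. Prdm14 +42.1 kb lies between genes, and Tfcp2l1 +20.2 kb lies in an intron of Tfcp2l1.
Prdm14 +42.1 kb, chr1:13084955-13085154: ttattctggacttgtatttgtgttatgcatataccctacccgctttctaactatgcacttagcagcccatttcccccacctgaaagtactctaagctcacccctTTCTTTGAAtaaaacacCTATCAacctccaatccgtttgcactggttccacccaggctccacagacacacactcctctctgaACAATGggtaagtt
Tfcp2l1 +20.2 kb, chr1:118648035-118648234: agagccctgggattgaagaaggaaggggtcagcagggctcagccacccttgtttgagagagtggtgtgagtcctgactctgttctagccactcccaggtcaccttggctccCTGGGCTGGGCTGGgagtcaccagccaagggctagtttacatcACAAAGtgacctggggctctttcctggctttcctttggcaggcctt

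The last 2 regions were called in neither 0 h library and in both 48 h libraries. Nr5a2 -30.1 kb and Tcl1 -49.7 kb both lie between genes, and each window holds 3 matches to the GATA core motif.
Nr5a2 -30.1 kb, chr1:136990410-136990609: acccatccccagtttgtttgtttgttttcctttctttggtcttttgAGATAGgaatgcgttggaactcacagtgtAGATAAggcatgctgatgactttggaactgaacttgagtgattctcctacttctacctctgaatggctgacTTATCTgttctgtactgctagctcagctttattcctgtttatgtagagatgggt
Tcl1 -49.7 kb, chr12:105272382-105272581: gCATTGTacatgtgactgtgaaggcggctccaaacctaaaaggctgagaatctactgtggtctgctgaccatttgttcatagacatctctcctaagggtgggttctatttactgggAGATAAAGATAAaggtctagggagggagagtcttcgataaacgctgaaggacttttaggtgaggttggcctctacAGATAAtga

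In the lost windows, Nr5a2 +9.0 kb holds AAGGTCA, the core sequence bound by NR5A2 itself and by ESRRB, and one match each to the GATA core, KLF and STAT motifs. The windows of Nr5a2 -42.9 kb, Tbx3 +39.4 kb, Prdm14 +23.1 kb and Zfp42 -14.0 kb hold none of the letters searched.

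To ask how the neighbourhoods of these genes differed between the end points, each region was classed by its calls at 48 h and 0 h. Of the 101 regions, 19 were lost (both 0 h libraries, neither 48 h library), 21 were gained (the reverse) and 11 were shared (all 4 libraries). The rest comprised 13 transient regions, absent from all 4 of these libraries and called in both libraries of some time between, and 37 with other patterns. Among all ascribed regions, 14.4% were lost, 14.1% gained, 23.4% shared and 12.4% transient, against 18.8%, 20.8%, 10.9% and 12.9% of the 101. Shared regions were therefore a smaller share here than over all genes. The 101 regions were also more distal, with 15.8% within 5 kb of the TSS against 32.7% of all ascribed regions. Over all genes, 59.8% of shared regions lay within 5 kb. The part of this difference in the smaller share was not tested. Only 6 of the 101 were called in all 14 libraries, against 19.2% of all ascribed regions. An exact test of a pair of libraries against another pair cannot give a two-sided p below 0.333, and the classes were therefore not tested. Started from 2 h, so that both ends were in serum, the counts were 14 lost, 20 gained and 12 shared, an alternative chosen after seeing the data. The matching shares over all ascribed regions were not counted for this start, so these counts cannot be set against the genome.

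**Figure D1:**
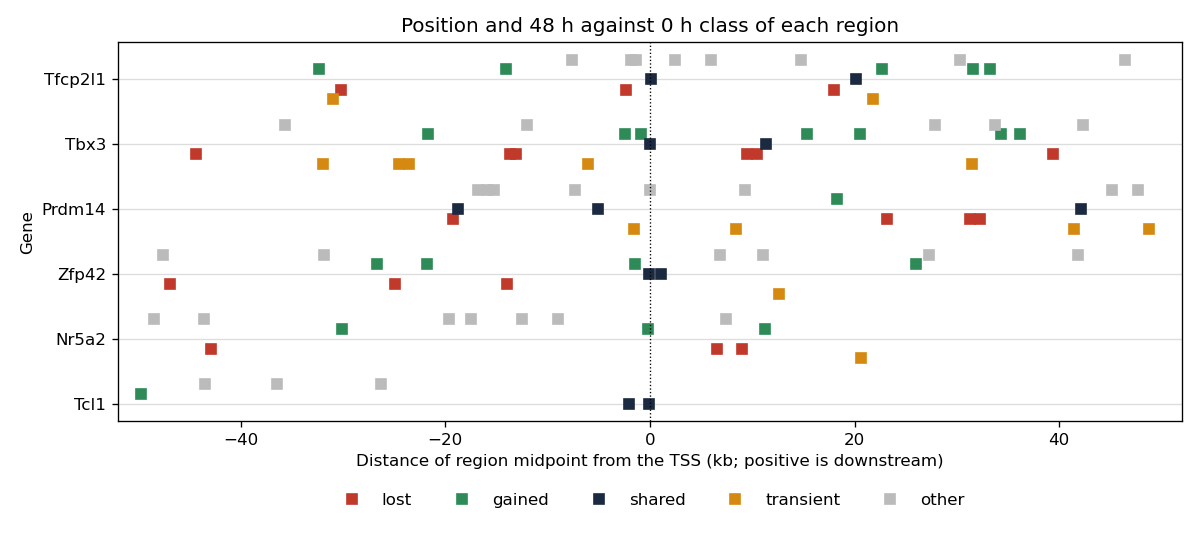
Each square is 1 of the 101 regions, placed by the distance of its midpoint from the TSS of its gene (x axis, kb, positive downstream) and by gene (y axis), with small vertical offsets that separate the classes. Colours give the class at 48 h against 0 h. Of the shared regions 6 of 11 lie within 5 kb of the TSS, and of the lost regions 1 of 19. Over all ascribed regions, 59.8% of shared and 18.9% of lost regions do, so the nearness of shared regions is general.

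The loss and gain were spread unevenly over the genes. Tbx3, with 25 regions, had 6 lost, 7 gained and 2 shared. Tfcp2l1, with 20, had 3 lost, 5 gained and 2 shared, and Zfp42, with 16, had 3 lost, 4 gained and 2 shared. Prdm14, with 20, had 4 lost, 1 gained and 3 shared. Nr5a2, with 14, had 3 lost, 3 gained and 0 shared. Tcl1, with 6, had 0 lost, 1 gained and 2 shared. Nr5a2 was thus the gene with no region called in all 4 libraries of the end points, although Nr5a2 -17.5 kb was called in both 0 h libraries and in 1 of 2 at 48 h. Tcl1 was the gene with no lost region. Lost regions lay at a median of 19261 bp from the TSS, gained regions at 21798 bp and shared regions at 2085 bp. The medians over all ascribed regions were 15363, 13154 and 1046 bp.

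Next, the order of loss was read from the 35 regions that both 0 h libraries called. At 2 h, 64.3% ± 2.02 of these were still called (SD, n = 2), and the share was the same, 64.3% ± 2.02, at 4 h. It was 65.7% ± 8.08 at 8 h and 72.9% ± 2.02 at 16 h. It then stood at 51.4% ± 0.0 at 24 h and 38.6% ± 2.02 at 48 h. Over all 34050 ascribed 0 h regions the retained share was 80.8% ± 1.78 at 2 h, 76.2% ± 1.02 at 16 h and 61.2% ± 0.930 at 48 h. Taken at all distances from the TSS, the retained share near the naive genes was lower than over all genes in both libraries at every time from 2 to 48 h. The gap at 48 h lay in distal regions. Over 5 kb from the TSS, 25.9% ± 0.0 of 27 regions were kept at 48 h against 45.1% ± 0.847 of 19289 over all genes, and within 5 kb the shares were 81.2% ± 8.84 of 8 and 82.2% ± 1.04 of 14761. This split by distance was made after the data were seen. Since the 0 h libraries chose the regions, retention was also read with 1 replicate's 0 h list defining them and the other replicate's libraries reading them. Then 83.4% ± 2.81 were found in the unused 0 h library, 57.2% ± 1.93 at 2 h and 36.9% ± 0.441 at 48 h, against 85.7% ± 3.50, 74.3% ± 3.30 and 57.1% ± 1.47 over all genes.

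**Figure D2:**
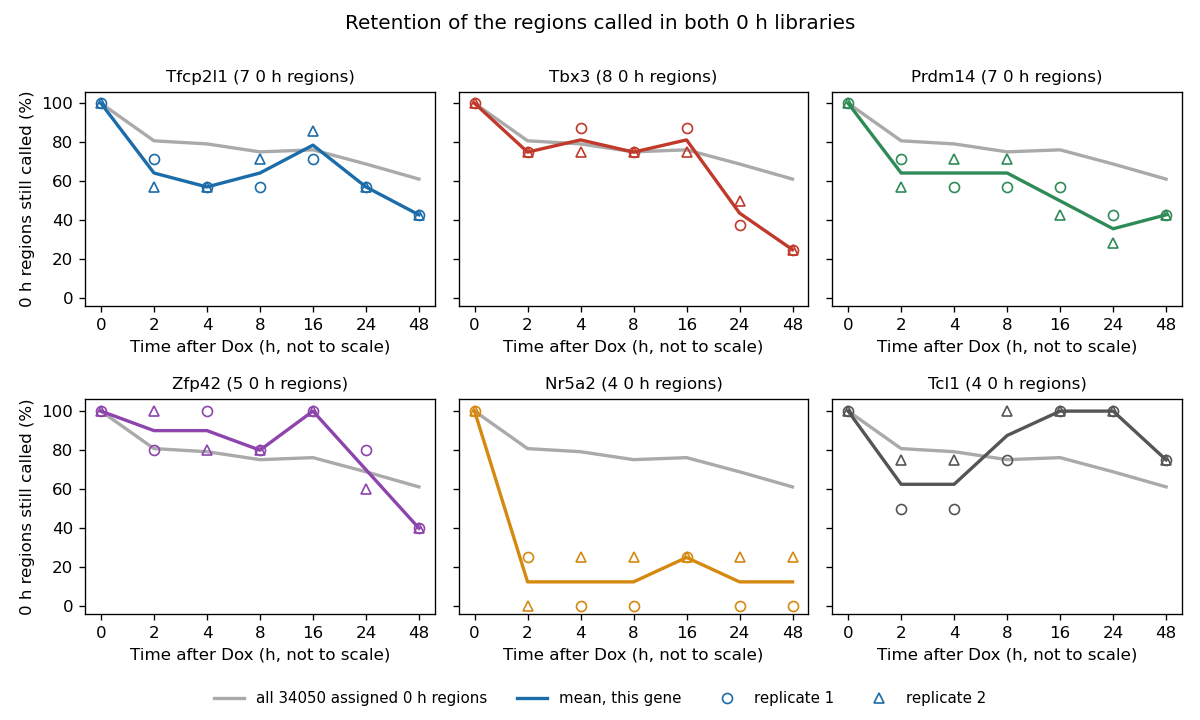
Each panel gives for 1 gene the share of its regions called in both 0 h libraries (y axis, %) that was still called at each time (x axis, h, spaced evenly). Symbols are the 2 libraries, the coloured line is their mean and the grey line is the mean over all 34050 ascribed 0 h regions. Nr5a2 drops to 12.5% at 2 h, Tbx3 drops between 16 and 24 h, and Tcl1 is back at 100% at 16 h.

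Nr5a2 was the first gene to lose its 0 h regions. Of its 4 regions, 1 was still called in replicate 1 and 0 in replicate 2 at 2 h, a mean of 12.5% ± 17.7 (SD, n = 2), and at 48 h the mean was again 12.5% ± 17.7. Prdm14 and Tbx3 followed, with a mean retained share that stayed under 50% from 24 h, at 35.7% ± 10.1 of 7 and 43.8% ± 8.84 of 8 regions. Tfcp2l1 and Zfp42 went under 50% at 48 h, at 42.9% ± 0.0 of 7 and 40.0% ± 0.0 of 5 regions. Tcl1 did not fall under 50% and stood at 75.0% ± 0.0 of 4 regions at 48 h. The place of Nr5a2 held under all 8 alternative ways of calling, merging and ascribing regions or leaving out a replicate, each of which gave 2 h. The order of the other genes did not hold, with times of 24 to 48 h for Tbx3, 24 to 48 h for Tfcp2l1 and Zfp42 where they fell under 50%, and 8 to 24 h for Prdm14 where it did, and Tcl1 fell under 50% at 48 h when 50% of a region had to be covered. Gene by gene the shares rest on 4 to 8 regions that share the same libraries, so neighbours in this order cannot be separated by a test.

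Of the 19 lost regions, 3 were gone from 2 h on, 1 from 4 h, 2 from 8 h, 1 from 16 h, 7 from 24 h and 5 from 48 h. The median loss time was 24 h, as over all 12124 lost regions. By 16 h, 36.8% of the lost regions near the naive genes were gone, against 49.1% over all genes. The contrast of 2 h with 0 h alone gave 9 lost and 7 gained of 101 regions, against 5.61% lost and 7.88% gained over all ascribed regions. Some of these early absences were not lasting, since only 3 of the 9 stayed absent through 48 h. Gained regions appeared in the numbers 3, 1, 3, 3, 4 and 7 at 2, 4, 8, 16, 24 and 48 h, counted from the time at which both libraries called them and none later lacked them in both. By 16 h 47.6% of the gained regions had appeared, against 45.5% of the 11910 gained over all genes, and by 2 h 14.3% against 9.73%.

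**Figure D3:**
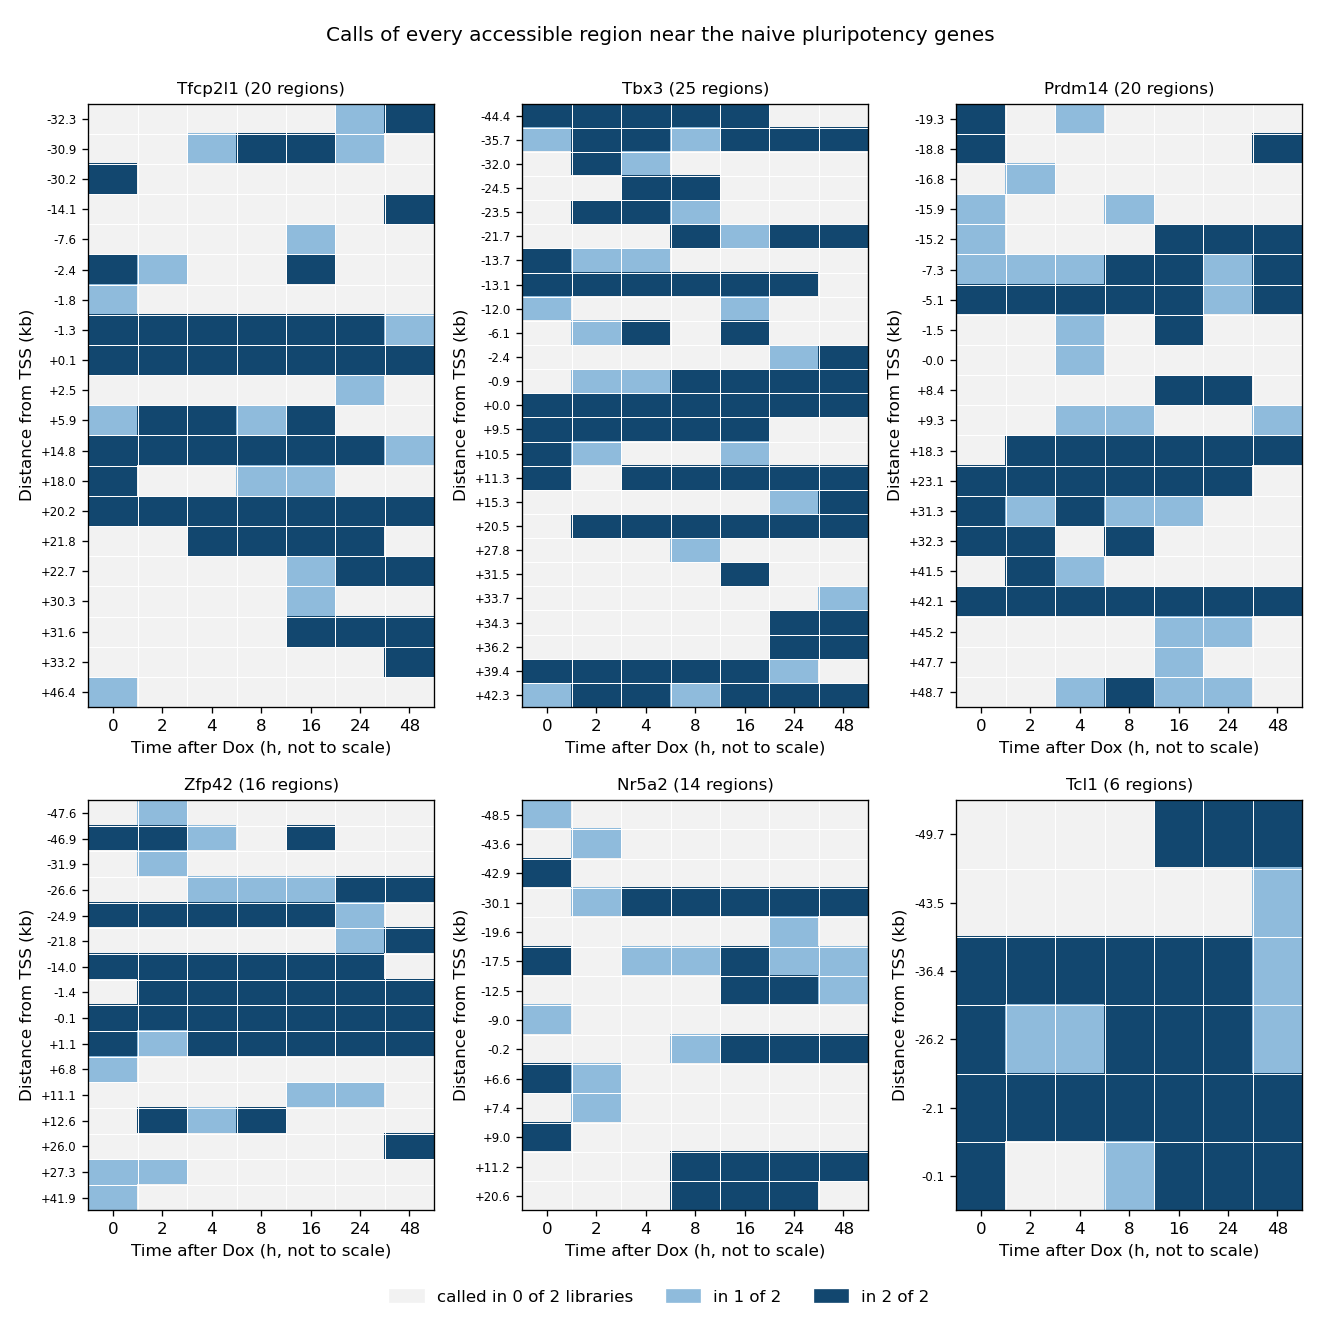
Every region of each gene is a row, ordered by distance from the TSS (y axis, kb), and every time after Dox is a column (x axis, h). Shade gives how many of the 2 libraries called the region, so a dark row that turns pale to the right is a loss. The loss at Nr5a2 falls in the second column, and the dark rows of Zfp42 and Tbx3 run to 16 or 24 h.

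Nr5a2 (chr1:136842571-136960448, minus strand) exchanged its regions for others, and it did so at its start sites too. The annotation gives protein-coding transcripts that start at the gene's TSS, 6.8 kb downstream and 10.9 and 11.3 kb downstream. The region at the TSS (Nr5a2 -0.2 kb, chr1:136960370-136960881, 5′ UTR and first exon) was called in neither library at 0, 2 and 4 h, in 1 library at 8 h, and in both at 16, 24 and 48 h. Its trend over time rose (two-sided exact permutation test, in which the statistic is the sum of time ranks over the libraries with a call, adjusted p = 0.0130). The region at the internal start site 6.8 kb downstream (Nr5a2 +6.6 kb, chr1:136953515-136954197) was called in both 0 h libraries, in 1 library at 2 h and in none from 4 h on, and its trend fell (exact permutation test, adjusted p = 0.0451). The region over the start sites farthest downstream (Nr5a2 +11.2 kb, chr1:136948591-136949832) was absent through 4 h and called in both libraries at each of 8, 16, 24 and 48 h, and its trend rose (exact permutation test, adjusted p = 0.0130). It was named after its values were seen, as was Nr5a2 -42.9 kb. No library called the region at the 6.8 kb start site together with either of the other 2 start-site regions.

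Away from the start sites, Nr5a2 +9.0 kb (chr1:136951207-136951754) stood at the 86.1 and 78.8 percentile of the scores of its 0 h lists, where 100 is the strongest peak of that list, and was called in no later library. Nr5a2 -42.9 kb (chr1:137002873-137003871), at the 74.9 and 71.6 percentile, also disappeared by 2 h. Both were called in 2 libraries only, and for such regions the smallest attainable p is 0.0220, which gave an adjusted p of 0.0541, so the exact permutation test could not call them. Nr5a2 -30.1 kb (chr1:136990315-136990705), whose sequence with 3 GATA core matches is given above, was absent at 0 h, called in 1 library at 2 h at the 12.6 percentile, and called in both from 4 h on. Its percentile in the 2 lists was 71.5 and 69.3 at 4 h, 91.5 and 85.3 at 24 h, and 68.1 and 69.7 at 48 h, and its trend rose (exact permutation test, adjusted p = 0.0451). Early loss and later gain left the number of called Nr5a2 regions at 6 and 4 at 0 h, 3 and 1 at 2 h, 1 and 2 at 4 h, 6 and 6 at 16 h, and 3 and 5 at 48 h. The lowest counts fell at 2 and 4 h, and the 48 h counts overlapped those at 0 h.

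Zfp42 (chr8:43295063-43306980, minus strand) kept its promoter and lost its strongest distal region last. The TSS region (Zfp42 -0.1 kb, chr8:43306841-43307322, 5′ UTR and first exon) was called in all 14 libraries, at the 96.0 and 93.5 percentile at 0 h and the 95.1 and 92.3 percentile at 48 h. Zfp42 -14.0 kb (chr8:43320502-43321432) stood at the 99.4 and 98.5 percentile at 0 h, 93.1 and 96.3 at 2 h, 87.9 and 89.9 at 4 h, 59.0 and 64.7 at 8 h, 75.5 and 74.7 at 16 h, and 36.9 and 43.9 at 24 h, and no peak was called there at 48 h. It passed from among the strongest peaks of its list to no call in steps, with 16 h above 8 h in both libraries. Since it was called in 12 libraries, its trend had the smallest p such regions can give and an adjusted p of 0.0541 by the exact permutation test. Zfp42 -24.9 kb was called in both libraries to 16 h, in 1 at 24 h and in none at 48 h, and its trend fell (exact permutation test, adjusted p = 0.0451). The first lost region, Zfp42 -46.9 kb (chr8:43353657-43354010), at the 32.7 and 6.03 percentile at 0 h, was missing at 8 h and called again in both libraries at 16 h before it was lost from 24 h. Zfp42 -1.4 kb (chr8:43308237-43308557), just upstream of the promoter, was the gene's gained region of highest rank. It was absent at 0 h and called in every library from 2 h on, at the 18.6 and 8.37 percentile at 2 h, 70.4 and 75.2 at 16 h and 67.1 and 56.3 at 48 h.

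Prdm14 (chr1:13113457-13127163, minus strand) had almost no calls at its promoter. The region at the TSS (chr1:13127028-13127365, 5′ UTR and first exon) was called in 1 of 14 libraries, at 4 h, at the 6.81 percentile. Its strongest region was distal. Prdm14 +42.1 kb (chr1:13084678-13085432) stood at the 99.9 percentile in both 0 h lists, and then at 98.4 and 97.4 at 2 h, 89.7 and 91.5 at 4 h, 63.6 and 37.4 at 8 h, 87.6 and 81.8 at 16 h, 36.7 and 51.3 at 24 h and 35.9 and 18.0 at 48 h. It was never lost from a list, and its fall shows only in rank. Prdm14 +23.1 kb (chr1:13103609-13104463) fell from the 86.3 and 92.5 percentile at 0 h to 14.3 and 34.0 at 8 h, stood at 67.1 and 59.7 at 16 h and 64.1 and 43.3 at 24 h, and was called in neither 48 h library. Prdm14 +32.3 kb was lost from 16 h and was the gene's one region with a falling trend (exact permutation test, adjusted p = 0.0451). The first lost region was Prdm14 -19.3 kb (chr1:13146297-13146552), which lies in an exon of the neighbouring gene Ncoa2, so that its link to Prdm14 rests on distance alone. It was called at the 33.5 and 51.3 percentile at 0 h and in 1 library at 4 h only. The gene's 1 gained region, Prdm14 +18.3 kb (chr1:13108488-13109207), was called in every library from 2 h on, at the 81.8 and 78.2 percentile at 2 h, 94.6 and 94.0 at 4 h and 79.6 and 72.6 at 48 h.

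Tbx3 (chr5:119670669-119684724, plus strand) had the most regions and the most exchange among them. Its TSS region (chr5:119670232-119671142, 5′ UTR and first exon) was called in all 14 libraries and never stood under the 93.6 percentile. Tbx3 +9.5 kb (chr5:119679765-119680594, over coding sequence of Tbx3) was the lost region of highest rank. Its percentile was 83.5 and 82.2 at 0 h, 91.6 and 81.1 at 4 h, 59.5 and 60.8 at 8 h and 55.5 and 37.1 at 16 h, and it was called in neither library at 24 and 48 h. The trend fell (exact permutation test, adjusted p = 0.0130). Tbx3 -13.7 kb (chr5:119656735-119657285, an intron of the antisense gene Tbx3os1) was the first lost. It stood at the 45.8 and 45.1 percentile at 0 h, appeared in 1 library each at 2 and 4 h, and was gone from 8 h (falling, exact permutation test, adjusted p = 0.0451). Lost at 48 h were Tbx3 -13.1 kb, still called in both 24 h libraries at the 26.5 and 26.6 percentile, and Tbx3 +39.4 kb (chr5:119709625-119710462). The latter went from 75.6 and 79.8 at 0 h through 54.1 and 58.4 at 8 h to 1 library at 24 h, at 28.7, and none at 48 h (falling, exact permutation test, adjusted p = 0.0451).

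Gains at Tbx3 came both near and far. Tbx3 +34.3 kb (chr5:119704792-119705189, between genes) was absent through 16 h, stood at the 21.7 and 40.7 percentile at 24 h and reached 67.6 and 63.9 at 48 h (rising, exact permutation test, adjusted p = 0.0130). In all, 6 of its 22 tested regions rose and 4 fell, where 12.1% rose and 12.3% fell over all tested regions. The library counts of called Tbx3 regions were 9 and 10 at 0 h, 13 and 11 at 2 h and 12 and 11 at 48 h, so no library after GATA6 induction called fewer Tbx3 regions than a 0 h library did.

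Tfcp2l1 (chr1:118627945-118685168, plus strand) showed opposite movements of its promoter and its strongest intronic region within the lists. The TSS region (Tfcp2l1 +0.1 kb, chr1:118627701-118628489, covering 5′ UTR and coding sequence) was called in all libraries, at the 49.9 and 8.42 percentile at 0 h, 64.9 and 69.6 at 8 h, 79.9 and 73.1 at 24 h and 76.3 and 78.9 at 48 h. Every library from 8 h on ranked it above every library from 0 to 4 h. Tfcp2l1 +20.2 kb (chr1:118647819-118648451) went from 99.1 and 97.2 at 0 h to 93.6 and 92.0 at 48 h. Tfcp2l1 -2.4 kb (chr1:118625345-118625820, between genes) was the lost region of highest rank, at 63.5 and 66.4 at 0 h. It was absent at 4 and 8 h, called in both libraries at 16 h at 13.5 and 22.0, and lost from 24 h. Tfcp2l1 -30.2 kb (chr1:118597565-118597875, an intron of Clasp1) was called only at 0 h, at the 56.1 and 34.6 percentile. Tfcp2l1 -32.3 kb (chr1:118595386-118595836, also in Clasp1) was gained late, in 1 library at 24 h and in both at 48 h at the 77.8 and 78.7 percentile (rising, exact permutation test, adjusted p = 0.0451). Of 11 tested Tfcp2l1 regions, 3 rose and 0 fell by the exact permutation test. Over all tested regions the same 12.1% rose and 12.3% fell. At an unadjusted p under 0.05, 5 rose and 1 fell, against 11986 and 10781 of 51020 tested ascribed regions. Tfcp2l1 +14.8 kb and -1.3 kb, called in 13 libraries, entered neither this test nor the later one on ranks. The first went from 89.0 and 91.7 at 0 h to 16.6 and 20.7 at 24 h and 14.7 in 1 library at 48 h. The second went from 73.7 and 84.3 at 0 h to 19.4 in 1 library at 48 h. Both were named after their values were seen.

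Tcl1 (chr12:105216750-105222793, minus strand) kept calls at all 4 of its 0 h regions in at least 1 library at 48 h. The TSS region (Tcl1 -0.1 kb, chr12:105222454-105223331, 5′ UTR and coding sequence) was weak at 0 h, at the 9.22 and 2.74 percentile, missing from all 4 libraries at 2 and 4 h, called in 1 library at 8 h at 29.7, and called in both from 16 h, at 57.2 and 54.8, then 48.6 and 65.8 at 24 h and 37.9 and 18.6 at 48 h. Its trend was not called (exact permutation test, adjusted p = 0.249). Tcl1 -2.1 kb (chr12:105224461-105225296) was called in all 14 libraries, between the 81.8 and 94.9 percentile. Tcl1 -49.7 kb (chr12:105272147-105272817) was absent to 8 h and called from 16 h on, rising in rank from 34.8 and 39.5 at 16 h to 62.6 and 64.6 at 48 h (rising trend of calls, exact permutation test, adjusted p = 0.0130).

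Tested over all 14 libraries, with adjustment over 79559 regions called in 2 to 12 libraries, 70 of the 101 regions could be tested, of which 7 fell and 15 rose. Over all tested regions 12.3% fell and 12.1% rose. The 7 falling regions were 4 at Tbx3 and 1 each at Prdm14, Zfp42 and Nr5a2, and the 15 rising regions were 6 at Tbx3, 3 each at Tfcp2l1 and Nr5a2, 2 at Zfp42 and 1 at Tcl1. Without adjustment 16 of the 70 fell and 23 rose, against 10781 and 11986 of the 51020 ascribed regions that were tested. Regions called in 2 or 12 libraries cannot pass, which concerns 21 of the 70, and 12 of these had the most extreme order possible. Shuffling times within replicate numbers reduced the counts to 3 falling and 8 rising, where 9.13% fell and 9.49% rose over all regions. Leaving out the 0 h libraries, which kept the test within serum, gave 3 falling and 9 rising, while over all 68655 regions tested 12.2% fell and 7.69% rose. Of the 7 falling and 15 rising regions, 2 and 7 were also called within serum. Of the others described above, Tfcp2l1 -32.3 kb, Tbx3 -13.7 kb, Tbx3 +39.4 kb, Zfp42 -24.9 kb and Prdm14 +32.3 kb did not pass there (exact permutation test, adjusted p = 0.0605, 0.238, 0.0605, 0.0605 and 0.104). Nr5a2 +6.6 kb and Nr5a2 -30.1 kb, called in 1 and 11 of those 12 libraries, could not be tested within serum. Tbx3 -13.7 kb also missed the threshold with the strongest 50000 peaks of each list (adjusted p = 0.0658, exact permutation test). Merging peaks within 200 bp joined it to Tbx3 -13.1 kb in a region called in 12 libraries, which cannot pass. The value of that joined region (exact permutation test, adjusted p = 0.0531) says nothing about Tbx3 -13.7 kb itself. With either replicate left out, the smallest p this test can give over 7 libraries is 0.0571, so it could call no region.

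Per gene, the number of called regions had no trend that passed at any of the 6 genes (permutation test of the correlation with ranked time, adjusted over 14451 genes), where 9.31% of all genes fell and 10.7% rose. Tcl1 came nearest, with 4 and 4 regions at 0 h, 2 and 3 at 2 h, 5 and 5 at 16 h and 5 and 4 at 48 h (Pearson r = 0.61, permutation p = 0.0279, adjusted p = 0.0938; Spearman rho = 0.64, permutation p = 0.0174). Its r was 0.60 without the 48 h libraries. Tcl1 passed without the 0 h libraries (adjusted p = 0.0294, permutation test) and with the strongest 50000 peaks of each list (adjusted p = 0.0280, permutation test). The adjusted p of the other genes ran from 0.377 for Nr5a2 to 0.584 for Tbx3 by the same permutation test. Unadjusted, only Tcl1 of the 6 had a p under 0.05.

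**Figure D4:**
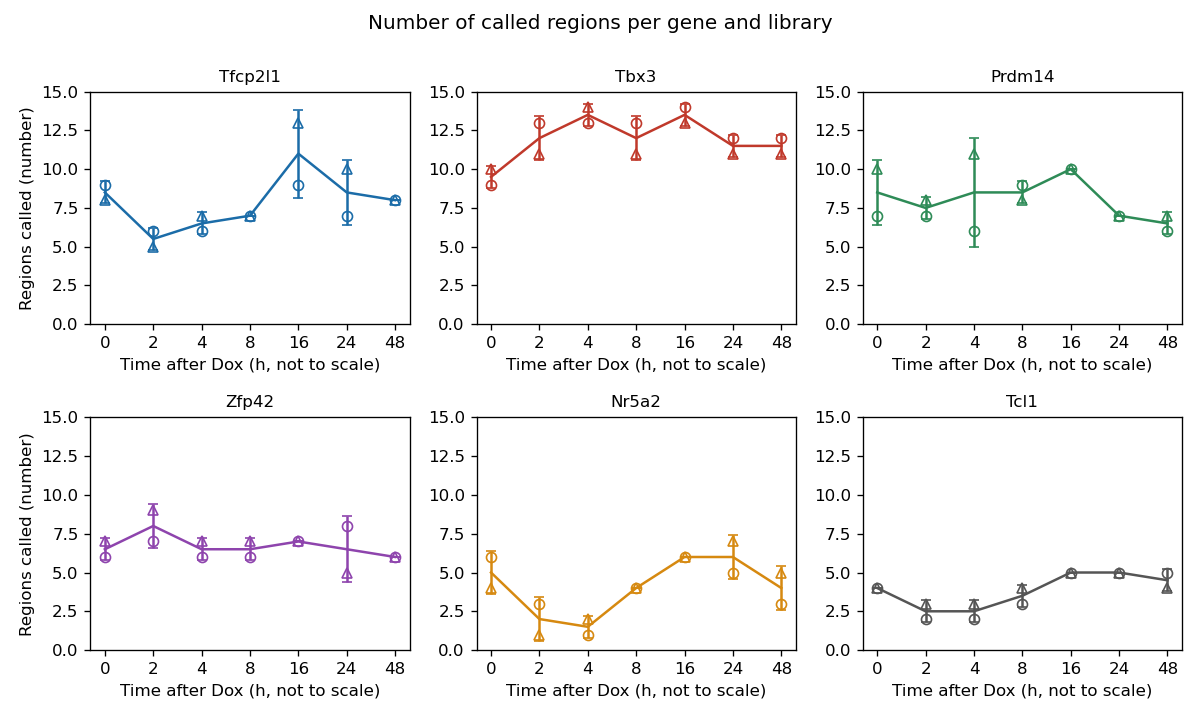
The number of called regions (y axis) is given for each gene at each time after Dox (x axis, h, spaced evenly), with circles for replicate 1, triangles for replicate 2 and a line and bars for their mean and SD. Nr5a2 dips to between 1 and 3 regions at 2 and 4 h, and every library from 2 h on calls more Tbx3 regions than either 0 h library.

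A region that is called throughout can still change its place in the lists, so the score percentile was followed in the 6 regions called in all 14 libraries. The percentile is relative to the other peaks of a list and is not a measure of openness, and the lists differ in length, with the shortest at 48 h and the longest at 16 h. This test was chosen after the data were seen and was adjusted over all 18809 such regions of the genome, of which 12.6% fell and 20.8% rose in rank. Prdm14 +42.1 kb fell, from a mean percentile of 99.9 ± 0.026 to 27.0 ± 12.6 (SD, n = 2; Pearson r = -0.84, adjusted p = 0.00305; Spearman rho = -0.94, permutation p = 1e-05, the smallest the shuffles can give). Tfcp2l1 +20.2 kb fell by less, from 98.2 ± 1.34 to 92.8 ± 1.12 (SD, n = 2; r = -0.80, adjusted p = 0.00473; rho = -0.83, permutation p = 0.00056). The Tfcp2l1 promoter rose, from 29.1 ± 29.3 to 77.6 ± 1.83 (SD, n = 2; r = 0.81, adjusted p = 0.00265; rho = 0.87, permutation p = 0.00017). Without the 48 h libraries r was -0.76, -0.69 and 0.77 in that order. The other 3 regions, the promoters of Tbx3 and Zfp42 and Tcl1 -2.1 kb, had adjusted p from 0.469 to 0.956 by the same permutation test. The 3 calls held within replicate numbers and without the 0 h libraries. With each list reduced to its strongest 50000 peaks, and so to equal length, Prdm14 +42.1 kb and Tfcp2l1 +20.2 kb again fell (r = -0.84 and -0.80, adjusted p = 0.00317 and 0.00485 by the permutation test). The Tfcp2l1 promoter was then no longer called in every library and its rise could not be tested.

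**Figure D5:**
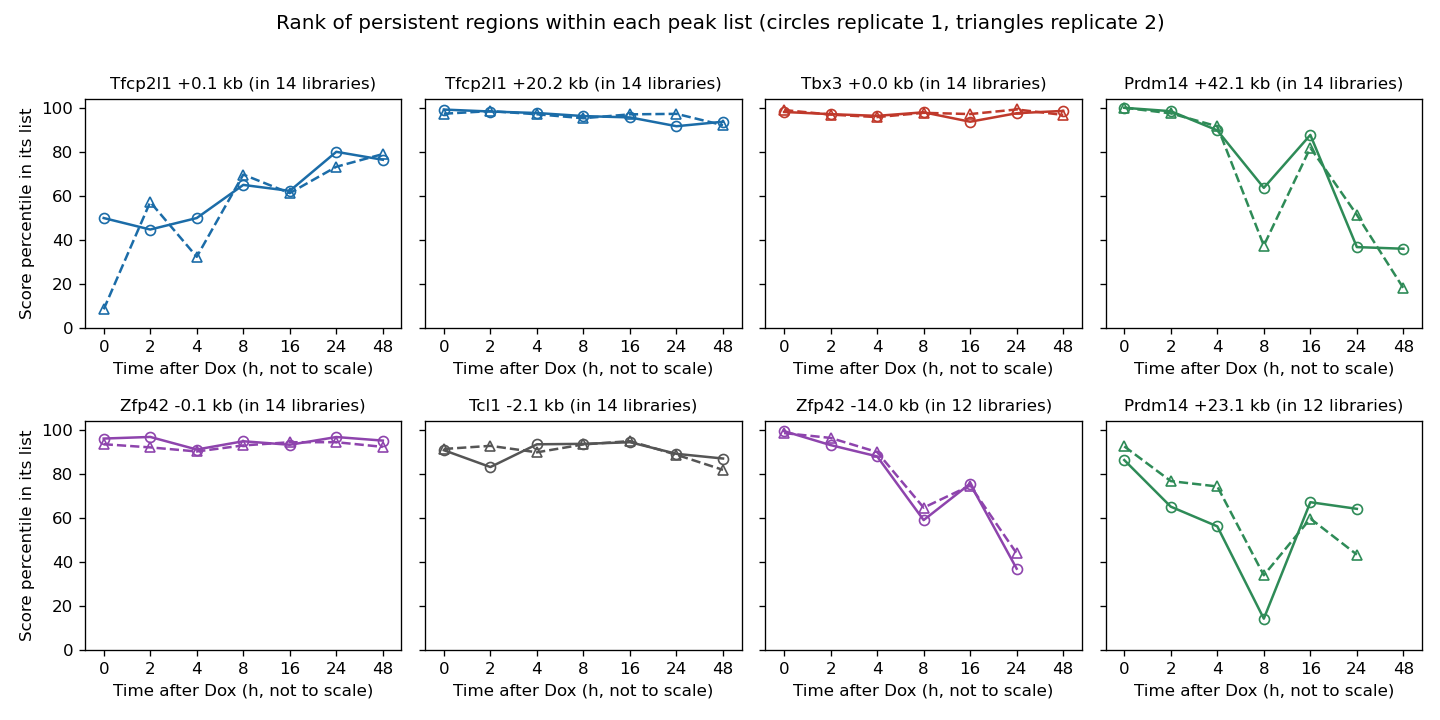
The percentile of a region's score within each library's own peak list (y axis, 100 is the strongest peak) is followed over time after Dox (x axis, h, spaced evenly) in the 6 regions called in all 14 libraries and in 2 lost distal regions, with circles and solid lines for replicate 1 and triangles and broken lines for replicate 2. Prdm14 +42.1 kb, Zfp42 -14.0 kb and Prdm14 +23.1 kb are all lower at 8 h than at 16 h, whereas the Tfcp2l1 and Tbx3 promoters are higher at 8 h. The Tbx3 and Zfp42 promoters stay near the top.

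Dox was withdrawn at 12 h, between the 8 and 16 h libraries. Of the 20 regions near the naive genes that were called in both libraries at 0, 8 and 16 h, 7 had both 16 h percentiles above both 8 h percentiles and 6 had both below. Over all such regions 25.8% were higher and 26.0% lower at 16 h, against 35.0% and 30.0% of the 20. The 7 included Prdm14 +42.1 kb, Prdm14 +23.1 kb and Zfp42 -14.0 kb. The 6 included the Tfcp2l1 and Tbx3 promoters, Tbx3 +9.5 kb and Tbx3 -13.1 kb. Of the 10 regions present at 0 h and absent at 8 h, 2 were called in both libraries at 16 h, Tfcp2l1 -2.4 kb and Zfp42 -46.9 kb, against 12.7% over all genes. Replicate 2 at 16 h had the longest list of all libraries, and its part in these returns was not tested. These counts were made after the data were seen and carry no test.

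The wider naive list holds 15 genes, all with regions. In the same gene-level permutation test Klf2 and Fgf4 fell, Klf4 and Klf5 rose, and the other 11 did not pass, with Nanog at an adjusted p of 0.381 and Esrrb at 0.260. Fgf4, the ligand with which epiblast cells induce PrE, had 7 called regions in each 0 h library and 1 and 2 at 48 h, in lowest to highest order. Klf2 had 7 to 9 at 0 h and 4 to 5 at 48 h, Klf4 had 2 to 4 and 9 to 10, and Klf5 had 7 to 8 and 10 to 13. Over all genes tested 9.31% fell and 10.7% rose, against 2 of 15 in each direction here. Of the 182 regions of this list 36 were lost and 25 gained, or 19.8% and 13.7%, against 14.4% and 14.1% of all ascribed regions. Of 8 formative genes, which mark the state that epiblast cells enter after naive pluripotency, Lef1 fell, from 6 to 9 regions at 0 h to 2 to 3 at 48 h, and 7 did not pass, which leaves 1 of 8 falling against 9.31% of all genes. Of the 55 formative regions 21.8% were lost and 10.9% gained. The lost share was 21.8% for the trophectoderm, 27.3% for the fibroblast, 16.2% for the ES cell and 7.14% for the PrE markers. A lost share above 14.4% was thus not particular to the naive genes.

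Motifs were counted in the central 200 bp of each region on both strands. The GATA core (NGATAN with A or T as its first and A or G as its last letter) was found in 5 of 19 lost regions of the 6 genes, in 3 of 11 shared regions and in 10 of 21 gained regions, or 47.6%. The shares over all genes were 20.9% of lost, 16.4% of shared and 54.4% of gained regions, and 32.2% of all ascribed regions. KLF motifs (GGGNGGGG) were in 6 lost, 3 gained and 5 shared regions, against 18.5%, 16.5% and 26.7% of these classes over all genes. SOX cores (ACAANG with A or T for N) were in 3, 6 and 4, against 33.7%, 37.0% and 17.6%. STAT motifs (TTCNNNGAA) were in 2, 1 and 2 (6.42%, 6.32% and 4.67%), and the site AAGGTCA in 1, 3 and 0 (8.47%, 4.40% and 2.99%). Over all ascribed regions of any class, these motifs in the same order were in 20.3%, 27.2%, 5.63% and 5.14%. AP-1 motifs (TGANTCA with C or G for N) were in 2, 3 and 0 regions, against 5.52%, 4.83% and 3.17% by class and 8.47% of all ascribed regions. The octamer ATTTGCAT was in 1, 0 and 0, against 3.75%, 1.04% and 1.21% by class and 1601 of all 84402 ascribed regions. A pair of CCAG half-sites spaced by 6 bases, the form bound by TFCP2L1, occurred in 1 of the 101 regions, against 3.20% over all genes. That 1 region was Tfcp2l1 +20.2 kb, in the gene's own intron. No motif's letters contain those of another, though positions written N can cover them, and a match describes letters and not binding.

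By number of called regions over the 14 libraries, the genes most like each member on other chromosomes, among those with at least 5 regions, were Camsap3, Cdkn1b and Tspan18 for Tfcp2l1 (Pearson r of 0.91, 0.88 and 0.87) and Gpr37l1, Bend3 and Frmd7 for Tbx3 (0.85, 0.82 and 0.82). They were Gfod2, Dgkk and Axin2 for Prdm14 (0.87, 0.87 and 0.85) and Tmem233, Maats1 and Pkp4 for Zfp42 (0.83, 0.80 and 0.80). Nr5a2 was most like Mfrp, Pomc and Ston1 (0.85, 0.85 and 0.84) and Tcl1 most like Snx1, Blk and Nectin2 (0.90, 0.89 and 0.87). These are the highest of at least 6640 genes compared per member, share libraries and list lengths, and are given as a description.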

How the data were processed

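ATAC-seq was run by the authors on 14 libraries, 2 at each of 7 time points. The authors deposited 1 peak list per library from the ENCODE ATAC-seq pipeline (version 1.9.0), called per library at an irreproducible discovery rate of 0.05 between pseudoreplicates, with blacklisted peaks removed. Builds named in the submitters' processing notes are mm10 and GRCm38. Each deposited peak has a score on an unstated scale, used here only as a percentile within its list. The lists hold no reads, so depth is unknown, no interval that needs it is given, and a missing peak can be an open region below a library's threshold.

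Peaks overlapping by 1 bp were merged (median width 489 bp), a call in a library needed at least 1 bp covered, and regions went to the nearest gene-level TSS of a protein-coding gene in GENCODE M21 within 50 kb. Coordinates are counted from 1, and 0 regions ended past a chromosome of the GRCm38 sequence used. Regions called in 2 to 12 libraries were tested by an exact permutation test, and genes with at least 2 regions by 100000 shuffles of the time labels. Ranks used the same shuffles. P-values were adjusted by Benjamini-Hochberg over all features tested, at 0.05 (Python 3.11.15, numpy 2.4.6, pandas 2.3.3), and both tests were tested on simulated data. The regions named for each gene are the one at the TSS, the highest by 0 h percentile, the highest lost, the highest gained, and the first and last lost (ties by 0 h percentile), and exceptions are stated. The members and lists were chosen with earlier results of these data known.

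Deviations of same-numbered replicates from the time-point means had correlations between -0.016 and 0.012 over 21 pairs of time points, so the numbers were not taken to pair libraries. A correlation cannot show an offset common to all regions. Replicate 2 had the longer list at every time, from 61403 against 61393 peaks at 8 h to 60483 against 56924 at 0 h and 58450 against 55588 at 48 h. Counts with shuffling within replicate numbers are therefore given as well. No 2 libraries of a time point shared more than 531 identical peaks. Alternatives were the strongest 50000 peaks per list, 50% of a region covered, merging within 200 bp, TSS limits of 20 and 100 kb, either replicate left out, shuffling within replicate numbers, no 0 h libraries, calls in at least 1 library, base pairs covered and, added after seeing the data, a 2 h start, transcript-level TSSs and ranks among the strongest 50000 peaks.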

Additional observations from a re-analysis of the deposited data

How the results depend on the processing

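The peak lists limit these results to presence or absence above a threshold that differs between libraries and whose depth is unknown. Of the results named in the text, 0 changed direction with a call under any alternative. Of 310 comparisons with an alternative that kept both replicates, 262 kept their call or value, 9 lost a call, 13 gained one and 26 moved. The kept comparisons include some that could not change. The trend test of a single named region uses only its calls, which the TSS limits and transcript-level TSSs leave as they are. Its adjusted p was therefore the same under those alternatives, and these comparisons say nothing about stability. The causes of the changes listed here were not tested, except that smaller windows and single libraries hold fewer regions or allow fewer distinct p-values.

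Member regions lost, gained and shared at 48 h were 10, 8 and 9 within 20 kb, against 19, 21 and 11 in the main analysis. Shared regions numbered 17 within 100 kb. With a call in at least 1 library, 29 were lost and 20 shared. The share of 0 h regions kept at 48 h, 38.6% in the main analysis, was 32.3% with the strongest 50000 peaks, 31.8% with 50% of a region covered, 42.2% with peaks merged within 200 bp and 47.7% within 20 kb, while the same share over all genes was 61.7%, 51.8%, 61.9% and 67.9%. Falling regions, 7 in the main analysis, numbered 16 with the strongest 50000 peaks, where the share falling over all regions went from 12.3% to 23.0% too. Within 20 kb 3 fell, and 5 rose in place of 15. With the strongest 50000 peaks the rank of 0 regions rose in place of 1, since the Tfcp2l1 promoter was not called throughout. Tcl1 made 1 rising gene in place of 0 with the strongest 50000 peaks and again without the 0 h libraries, which also left 3 falling and 9 rising regions.

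Shuffling within replicate numbers (a replicate block) gave 3 falling and 8 rising regions, 0 falling and 0 rising genes, and left the 2 falls and 1 rise in rank in place. Over all regions this block gave 7263 falling and 7548 rising in place of 9769 and 9609. Under it Tfcp2l1 -32.3 kb, Tbx3 +39.4 kb, Nr5a2 +6.6 kb and Nr5a2 -30.1 kb missed the threshold (exact permutation test, adjusted p = 0.0555). The numbers are shared labels and not a known pairing. Leaving out replicate 1 or replicate 2 gave 26 to 28 lost, 24 to 26 gained and 14 to 17 shared regions, and 33.3% to 39.5% kept at 48 h. The trend tests then ranged from 0 to 0 falling and 0 to 0 rising for regions, genes and ranks, and called 0 features over the genome. For regions the smallest exact permutation p over 7 libraries is 0.0571, so those counts say nothing about stability.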
